A study of Mus musculus with 4 samples.

Results

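Wnt2, Wnt4, Wnt5a, Wnt5b, Wnt6, Wnt7b, Wnt10a, Wnt10b and Wnt11 are WNT ligands of the mammary gland, and their expression was compared between mammary tumours with and without a Cdc25a transgene. Each of the 9 genes was found by its symbol in the array's gene name column, outside control spots, and each had 1 such probe, so 9 probes of 41174 stand for these ligands. Of the 9 probes, 8 passed the filter on dim probes, in a set of 37174 kept probes for 32643 genes or transcripts. Tumours came from 2 mice carrying MMTV-cdc25a and MMTV-neu (Cdc25a;neu) and 2 mice carrying MMTV-neu alone (neu), all female FVB/N mice of 26 weeks with tumours of the early stage T1. Both groups thus carry the neu transgene, which encodes the rodent receptor tyrosine kinase ERBB2, and the comparison adds Cdc25a, a phosphatase that activates cyclin-dependent kinases. Both transgenes are driven by the mammary tumour virus promoter (MMTV), which is active mainly in mammary epithelium, and no tumour-free gland was compared.

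WNT proteins are secreted lipid-modified ligands that bind frizzled receptors. With LRP5 or LRP6 as co-receptor they stabilise beta-catenin, which then switches on target genes with TCF and LEF factors, while other WNT proteins act through ROR and RYK receptors without beta-catenin. In the mammary gland WNT10B marks the early mammary line, WNT4 carries the progesterone signal for side branching, and WNT5A restrains ductal growth. Wnt1 was first found as a gene activated by insertion of the mammary tumour virus in mouse mammary tumours.

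Each Cdc25a;neu tumour was hybridised with 1 neu tumour on 2-colour Agilent arrays, once in each dye orientation, which gave 4 arrays for 2 mouse pairs. The 2 arrays of a pair share their RNA, so the pair is the replicate, and ratios are log2 of Cdc25a;neu over neu, averaged within a pair. Signals are normalized spot intensities per mouse that include an added offset of 50, and expression is compared between tumours within a probe. Where spot brightness is set beside that of other probes, or summed over markers, it describes the spots and not the relative abundance of transcripts. The share of spots well above background was 78.5% to 92.2% in the green channel (Cy3) and 82.7% to 87.9% in the red (Cy5). In bulk tumours, fewer cells of a type and less RNA per cell cannot be told apart. Some ligands had both values of 1 genotype on the same side of both values of the other. The share of all genes that separate in this way is not given, so this describes the tumours only.

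Wnt10a was higher in Cdc25a;neu tumours in both mouse pairs and on all 4 arrays, by 2.62-fold in the mean. Wnt5b was higher on all 4 arrays by a smaller ratio that differed between the pairs. Wnt2 was slightly lower on all 4 arrays, and the other 5 kept ligands had ratios of both signs. None of these differences passed the test across all probes: 0 of the 8 kept ligands passed limma at an adjusted p of 0.05, as did 0 of 37174 kept probes (0%), and the lowest adjusted p of any probe was 0.245. At an unadjusted p under 0.05, 1 of the 8 ligands was found, Wnt10a, beside 3505 of all kept probes (9.43%). With 2 of 8 ligands higher and 1 of 8 lower on all 4 arrays, the shares stand beside 14.8% and 12.5% of all genes. With median centring in place of loess, 1 ligand (Wnt10a) was higher and 0 were lower on all 4 arrays, beside 4.65% and 3.29% of all genes. The median log2 ratio of the 8 ligands was -0.02, against 0.00 for all genes.

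**Figure D1:**
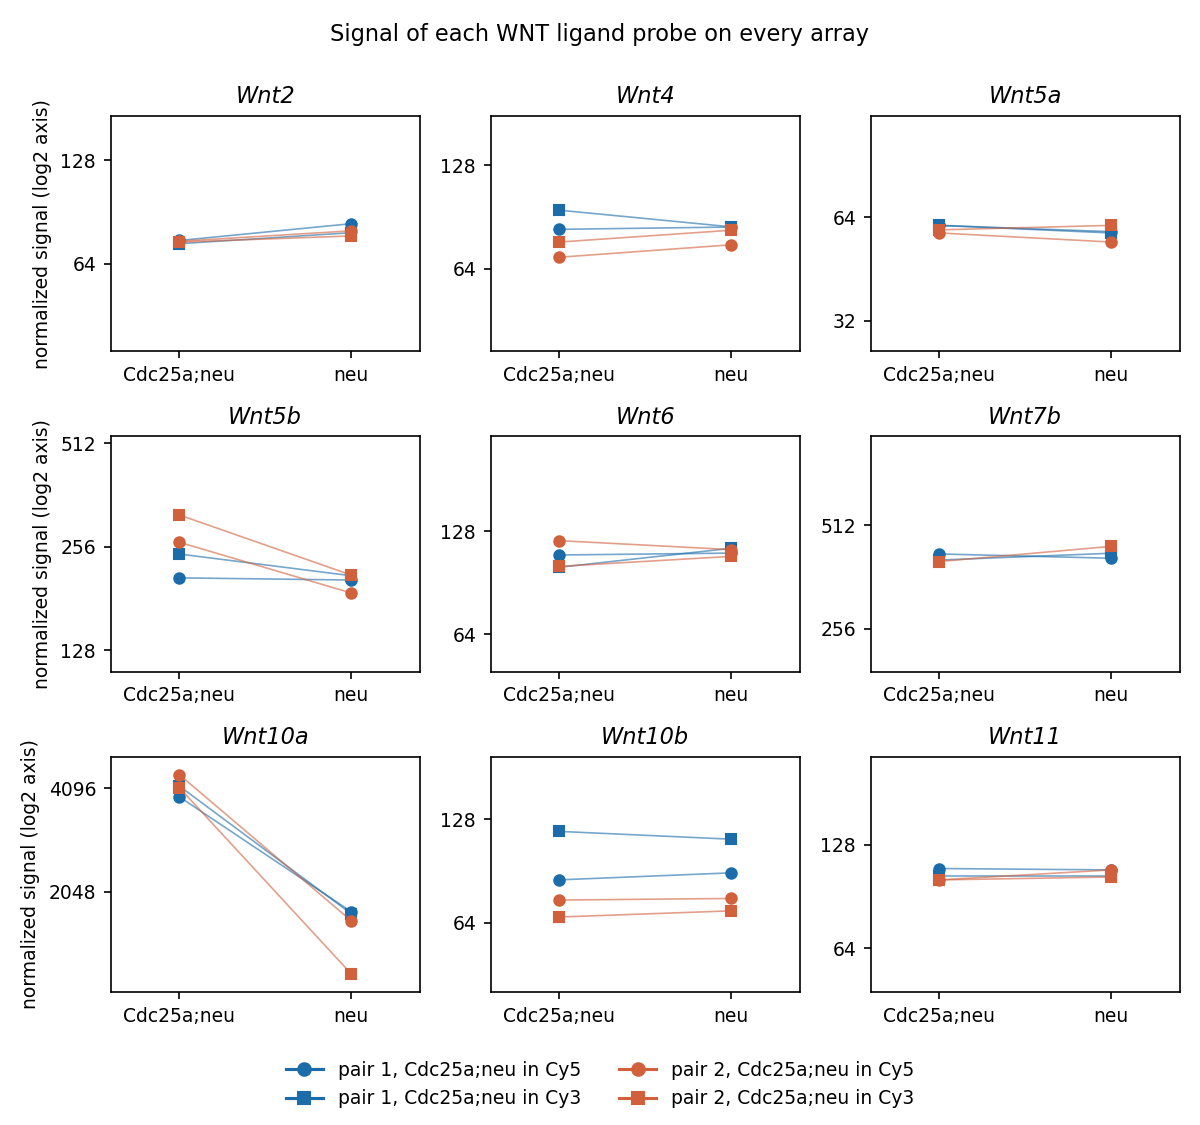
Normalized signal of each ligand's probe (log2 axis, offset of 50 included) in Cdc25a;neu and neu tumours, with 1 line per array, coloured by mouse pair and marked by the dye of the Cdc25a;neu tumour. Wnt10a slopes down towards neu on all 4 arrays, the Wnt5b lines are steeper in pair 2 than in pair 1, and the other probes are close to level. The Wnt7b panel has 3 arrays.

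Wnt10a encodes a ligand of the beta-catenin branch that is expressed in skin, hair follicles and developing teeth. Its signal was 4007 and 4292 in the Cdc25a;neu tumours of pairs 1 and 2, against 1779.7 and 1412 in the neu tumours. Both Cdc25a;neu values lay above both neu values. On the pair 1 arrays the log2 ratio was 1.11 with the Cdc25a;neu tumour in Cy5 and 1.23 with it in Cy3. On the pair 2 arrays it was 1.41 and 1.80 in the same dye order. Neither dye orientation brought the ratio near 0. The pair ratios of 1.17 and 1.60 gave a mean of 1.39 ± 0.31 (SD, n = 2 pairs). In limma the SE, which is moderated by the spread of other probes, was 0.14. The limma unadjusted p was 0.00308 and the adjusted p 0.453. The probe was well above background in both channels of all 4 arrays and was not saturated. It was the only 1 of the 8 kept ligands at least 2-fold higher in both pairs, as were 94 of 32643 genes (0.288%). The scanner software's own error model, which covers only the error within an array, gave a p under 0.01 with a higher value in Cdc25a;neu on all 4 arrays for this 1 ligand, and for 239 of all kept probes (0.643%).

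The Wnt10a ratio was shared, array by array, with many probes of other genes. Within 0.25 log2 units of Wnt10a on each of the 4 arrays lay 90 kept probes. Their median ratios were 1.09 in pair 1 and 1.60 in pair 2, close to Wnt10a as the rule that chose them requires. The same rule bounds the spread among the 90, with SDs of 0.06 in pair 1 and 0.09 in pair 2. The nearest named genes were Defb34, a beta-defensin, Kremen1, a receptor for DKK inhibitors, and Ilf2, a nuclear RNA-binding protein. On the array where each differed most from Wnt10a, the differences were 0.0628 for Defb34, 0.0856 for Kremen1 and 0.089 for Ilf2. Of the 46 with a current RefSeq symbol, 9 were olfactory or vomeronasal receptors, families of sensory neurons. Among all 37174 kept probes, 951 were of these families.

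These 90 probes were bright, with mean log2 signals of 9.86 to 14.7 and a median of 12.1, where the median of all kept probes was 7.26. Most other bright probes did not have this ratio: of 1136 kept probes with a signal at least that of Wnt10a, 59 were among the 90, and the median ratio of the 1136 was 0.00. The 9 receptor probes had a median log2 signal of 12.1, and the rest of the 951 kept receptor probes had 7.63. For 11 of the genes behind the 90 probes another kept probe existed, 18 probes in all, and these had ratios of -0.30 to 0.22 with a median of 0.01. The second probes were also dimmer, with a median log2 signal of 6.9 where the near-equal probes of the same genes had 12.2. The 90 probes were spread over the array, from row 5 to row 200 and column 2 to column 425. Wnt10a had no other kept probe, so its ratio could not be compared with a second measurement of the same gene. Of the 99 kept probes at least 2-fold higher in both pairs, 86 had at least 10 other probes within 0.25 on every array. Many of the 99 belong to the 90 probes just described, so this count is not separate from them. The share of all kept probes with as many near-equal probes is not given, and Wnt5b, with a smaller ratio, had 387. The part of this shared pattern in the Wnt10a ratio was not tested.

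**Figure D2:**
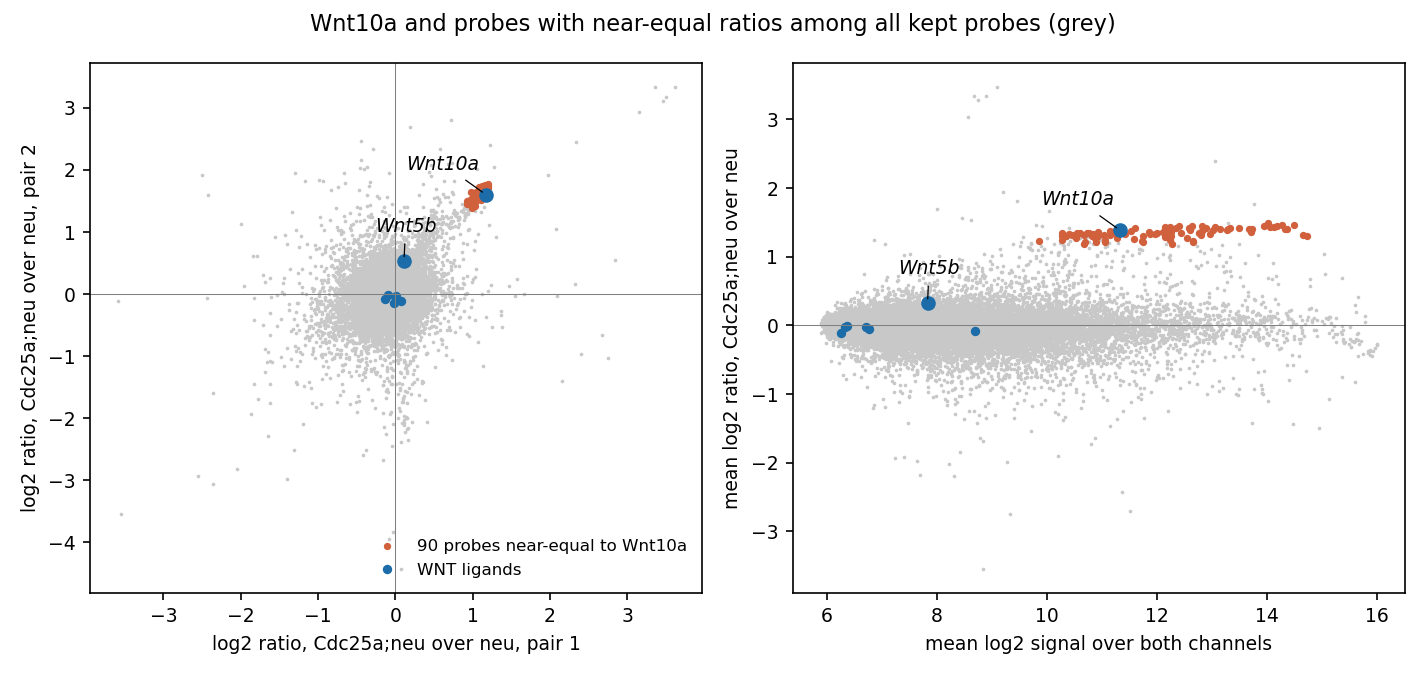
Left, log2 ratio of Cdc25a;neu over neu in pair 1 (x) against pair 2 (y). Right, mean log2 signal (x) against mean log2 ratio (y). Grey points are all 37174 kept probes, orange points the 90 probes within 0.25 of Wnt10a on every array, and blue points the 8 kept ligands. The orange points lie near the ratios of Wnt10a, as the rule that chose them requires, and run from a log2 signal of 9.86 to 14.7.

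Wnt6 lies next to Wnt10a on chromosome 1 in the RefSeq gene order, with no protein-coding gene between them, and encodes a ligand of surface ectoderm and other epithelia. Its signal was 105 and 109.8 in Cdc25a;neu tumours, against 112 and 111 in neu tumours. Both Cdc25a;neu values were below both neu values, but only by a few units of signal. The array ratios of -0.01, -0.18, 0.08 and -0.11 were of both signs, and the mean was -0.05 ± 0.06 (SD, n = 2 pairs, at a limma adjusted p of 0.769). On the other side of Wnt10a lies Cdk5r2, an activator of the kinase CDK5 known from neurons, named here after its values were seen. Cdk5r2 had signals of 3467 and 2131 in Cdc25a;neu tumours, against 2089 and 685 in neu tumours. Its ratios were 0.44 and 1.02 on the pair 1 arrays, then 2.43 and 0.84 on the pair 2 arrays, so the dye orientations of pair 2 were further apart than for Wnt10a. Its mean was 1.18 ± 0.64 (SD, n = 2 pairs, at a limma adjusted p of 0.506). Among the 20 measured genes nearest to Wnt10a, 5 were higher and 1 was lower on all 4 arrays, beside 14.8% and 12.5% of all genes. Their median ratio was -0.02.

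Wnt5b encodes a ligand close to WNT5A in sequence that acts mainly without beta-catenin. Its signal was 225 and 289 in Cdc25a;neu tumours, against 208 and 199 in neu tumours. Both Cdc25a;neu values were above both neu values, and most of the difference came from pair 2. The pair 1 arrays gave ratios of 0.02 and 0.21, and the pair 2 arrays 0.49 and 0.58. The pair ratios of 0.11 and 0.54 gave a mean of 0.32 ± 0.30 (SD, n = 2 pairs; 1.25-fold), with an unadjusted p of 0.104 and an adjusted p of 0.581 in limma. The scanner software's log ratio gave -0.01 on the pair 1 array with the Cdc25a;neu tumour in Cy5, and median centring gave -0.10 on the pair 1 array with that tumour in Cy3, so the same sign on all 4 arrays depends on the processing. The authors' deposited value table, with a value on 3 of the arrays, gave a mean of 0.51 (limma adjusted p = 0.524). A further probe carries a transcript identifier in place of the symbol and is described as WNT-5B, so the symbol did not find it. It had signals of 91.3 and 84.3 in Cdc25a;neu tumours, against 85.1 and 74.9 in neu tumours, and ratios of 0.10 in pair 1 and 0.17 in pair 2. Both probes were thus higher in Cdc25a;neu in both pairs, and the further probe had a mean of 0.14 ± 0.05 (SD, n = 2 pairs, at a limma adjusted p of 0.548), with a smaller gap between its pairs.

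The gene whose ratios were nearest to those of Wnt5b on the 4 arrays was Fzd2, a frizzled receptor known to bind WNT5A, with ratios of 0.03 and 0.20 on the pair 1 arrays, then 0.43 and 0.54 on the pair 2 arrays. Nme4, a mitochondrial nucleoside diphosphate kinase, and Ids, a lysosomal sulfatase, followed. Within 0.25 of Wnt5b on every array lay 387 kept probes of other genes. Pair 2 also differed from pair 1 in some markers of other cells. The summed signal of 7 macrophage markers was 7558 and 35282 in Cdc25a;neu tumours, against 10006 and 9873 in neu tumours, and that of 9 fibroblast markers was 2261 and 8743, against 2848 and 4893. Lyz2, a lysozyme of myeloid cells, supplied most of the macrophage sum, and the other 6 markers summed to 1864 and 2809 in Cdc25a;neu tumours, against 2208 and 1933 in neu tumours. The median ratio of the 7 macrophage markers was -0.37 in pair 1 and 0.52 in pair 2, and none had the same sign on all 4 arrays. In the fibroblast sum, the collagen genes Col1a1 (4228 in Cdc25a;neu, against 1392 in neu) and Col1a2 (1727, against 690.1) carried the pair 2 difference. The median ratio of the 9 fibroblast markers was -0.26 in pair 1 and -0.07 in pair 2. On all 4 arrays 4 of the 9 were lower, beside 12.5% of all genes. With median centring in place of loess 2 of the 9 were lower, beside 3.29%. The part of these cells in the Wnt5b ratio was not tested.

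Wnt5a, the ligand that restrains ductal growth, was the 1 probe that was not kept. It was well above background on 0 of 4 arrays in Cdc25a;neu and on 0 of 4 in neu, so no fold is given. Its signal, offset included, was 60.6 and 58.2 in Cdc25a;neu tumours, against 57.8 and 57.3 in neu tumours, and a difference was not detectable at this signal.

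Wnt4, the ligand induced by progesterone, had signals of 88.8 and 72.7 in Cdc25a;neu tumours, against 84.6 and 78.9 in neu tumours. The groups overlapped, and the pairs went opposite ways, at 0.07 in pair 1 and -0.12 in pair 2. The mean was -0.02 ± 0.13 (SD, n = 2 pairs, at a limma adjusted p of 0.933). Around Wnt4 on chromosome 4 the 20 nearest measured genes, Htr1d to Pink1 in gene order, had a median ratio of -0.38 in pair 1 and 0.01 in pair 2, where Wnt4 itself had 0.07 and -0.12. Of these 20 genes, 7 were lower and 2 were higher on all 4 arrays, beside 12.5% and 14.8% of all genes. With median centring in place of loess the shares of all genes were 3.29% and 4.65%, and no neighbour count is given.

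Wnt10b, the ligand of the early mammary line, lies beside Wnt1 on chromosome 15. Its signal was 100.3 and 70.4 in Cdc25a;neu tumours, against 99.9 and 72.3 in neu tumours. The pairs differed more from each other than the genotypes did within a pair. The mean ratio was -0.02 ± 0.03 (SD, n = 2 pairs, at a limma adjusted p of 0.931), and the probe was well above background on 4 arrays in Cdc25a;neu and on 2 in neu. Wnt1, the gene first found at mammary tumour virus insertions, had a mean ratio of 0.06 ± 0.05 (SD, n = 2 pairs, at a limma adjusted p of 0.739).

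Wnt2, expressed in stroma in many tissues, had signals of 74.1 and 74.3 in Cdc25a;neu tumours, against 81.3 and 78.6 in neu tumours. Both Cdc25a;neu values were below both neu values, and the array ratios ran from -0.16 to -0.06. The mean was -0.11 ± 0.04 (SD, n = 2 pairs, at a limma adjusted p of 0.591). The offset of 50 draws ratios of dim probes towards 0, and the scanner software's own log ratio gave -0.66 on both pair 1 arrays, then -0.32 and -0.22 on the pair 2 arrays, with a mean of -0.47 (limma adjusted p = 0.563).

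Wnt7b, a ligand of epithelia and kidney tubules, had signals of 414 and 402 in Cdc25a;neu tumours, against 418 and 445 in neu tumours. Both Cdc25a;neu values were below both neu values, but the pair 1 arrays gave ratios of both signs, 0.04 and -0.07. The spot of 1 pair 2 array carried an outlier flag, so the pair 2 ratio of -0.15 rests on 1 array. With -0.01 in pair 1 the mean was -0.08 ± 0.09 (SD, n = 2 pairs, at a limma adjusted p of 0.719). Wnt11, a ligand that acts mainly without beta-catenin and guides cell movements, had signals of 107 and 101 in Cdc25a;neu tumours, against 106 and 105 in neu tumours. Its groups overlapped, with array ratios of -0.10 to 0.01 and a mean of -0.03 ± 0.04 (SD, n = 2 pairs, at a limma adjusted p of 0.886). For these 6 kept ligands with ratios near 0, Wnt2, Wnt4, Wnt6, Wnt7b, Wnt10b and Wnt11, between 15799 and 22152 kept probes of other genes lay within 0.25 on every array, so their nearest genes (Rbm18, Tmem37, Lrrc23, Ring1, Mrps9 and Btk) are given only for completeness.

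**Figure D3:**
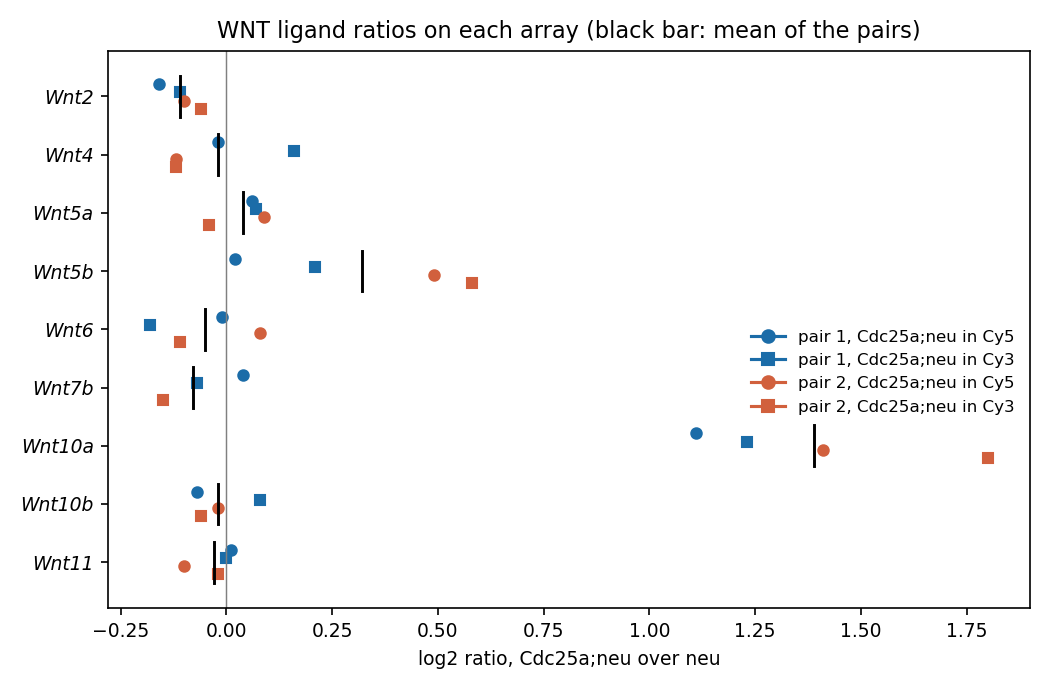
Log2 ratio of Cdc25a;neu over neu (x) for each ligand (rows) on the 4 arrays, with points coloured by mouse pair and shaped by dye orientation and a black bar at the mean of the pairs. Wnt10a lies at 1.11 to 1.80 and Wnt5b at 0.02 to 0.58, while the other 6 kept ligands lie between -0.18 and 0.16. Wnt5a is drawn although it was not above background.

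The remaining WNT ligands on the array did not have a ratio like that of Wnt10a. All 10 listed ligands outside the mammary set were measured, 0 of them had the same sign on all 4 arrays, and their means ran from -0.01 to 0.12. Wnt2b had the largest, at 0.12 ± 0.05 (SD, n = 2 pairs, at a limma adjusted p of 0.582). Of 85 measured genes of the pathway outside the 9 ligands, 0 passed an adjusted p of 0.05 and 9 had an unadjusted p under 0.05 in limma. On all 4 arrays 9 were higher (10.6%) and 13 were lower (15.3%), beside 14.8% and 12.5% of all genes, and their median was 0.00. These counts by array depend on the normalization: with median centring in place of loess, 2 of the 85 were higher and 1 was lower on all 4 arrays. The frizzled receptors and co-receptors, the beta-catenin core and its target genes then each had 0 higher and 0 lower. The R-spondin system genes had 0 higher and 1 lower. The secreted inhibitors with their receptors and the hormone-linked genes each had 1 higher and 0 lower. All counts by list below are with loess, rest on few genes and stand beside the same 14.8% higher and 12.5% lower of all genes.

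Among 15 frizzled receptors and co-receptors, 4 were higher and 2 were lower on all 4 arrays, and 9 had both signs. Ror2, a receptor for WNT5A, had signals of 587 and 628 in Cdc25a;neu tumours, against 515 and 447 in neu tumours, a mean ratio of 0.34 ± 0.21 (SD, n = 2 pairs, at a limma adjusted p of 0.531). A second kept Ror2 probe gave 0.13. Fzd2 was at 0.30 and Fzd7 at 0.22 in the mean (0.29 for its second kept probe), with the same sign in both pairs. Fzd1 differed between the pairs, at 1.03 in pair 1 and -0.42 in pair 2.

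Among 13 secreted inhibitors and their receptors, 2 were higher and 1 was lower on all 4 arrays. Kremen1 had signals of 3651 and 6238 in Cdc25a;neu tumours, against 1709 and 1998 in neu tumours, with ratios of 1.09 in pair 1 and 1.64 in pair 2. It was the 1 pathway gene among the 90 probes near-equal to Wnt10a. Sfrp1, a secreted frizzled-related inhibitor, differed between the pairs at -1.36 and 0.40.

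R-spondin system genes set how many frizzled receptors stay on the cell surface. Of the 7 measured, 3 were lower and 0 were higher on all 4 arrays, beside 12.5% and 14.8% of all genes. Lgr4, an R-spondin receptor, had signals of 464 and 531 in Cdc25a;neu tumours, against 749 and 797 in neu tumours, and a mean ratio of -0.64 ± 0.08 (SD, n = 2 pairs, at a limma adjusted p of 0.453). Rspo1, an R-spondin ligand, was at -0.31 in pair 1 and -1.20 in pair 2 (limma adjusted p = 0.548). It was dim, with signals of 67.4 and 82.7 in Cdc25a;neu tumours, against 83.8 and 190.1 in neu tumours. The Rspo1 probe was well above background on 2 arrays in Cdc25a;neu and on 4 in neu. Rnf43, a ubiquitin ligase that removes frizzled receptors, was at -0.20 in the mean. Among 6 maturation and secretion genes, Gpc4, a cell-surface glypican that binds WNT proteins, had the lowest ratio, at -0.46 ± 0.05 (SD, n = 2 pairs, at a limma adjusted p of 0.453). Wls, the carrier of WNT proteins to the cell surface, was at 0.05.

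Of 13 genes of the beta-catenin core, 1 was higher and 3 were lower on all 4 arrays. Tcf7l2, a DNA-binding partner of beta-catenin, was at -0.39 and Dvl1, which relays the frizzled signal, at -0.35, but the second kept probe of each gave 0.06 and 0.10. Of 19 listed beta-catenin target genes 16 were measured, while Axin2, Sp5 and Ppard had no kept probe. Among the 16 measured, 1 was higher, 1 was lower and 14 had both signs. Myc, a transcription factor of cell growth, was at 0.16 in pair 1 and -0.89 in pair 2. A second kept Myc probe gave 0.11 and -0.86, and the third gave -0.05 and -0.14, without this gap between the pairs. Ccnd1, which encodes cyclin D1, was at 0.11 in the mean. Of 6 listed hormone-linked genes, Pgr, the progesterone receptor, was on the array but had no kept probe. Among the 5 measured, 1 was higher and 1 was lower on all 4 arrays. Calca, a peptide hormone gene, was at 0.55 and Prlr, the prolactin receptor, at -0.44 in the mean, with -0.11 for a second kept Prlr probe. Esr1, the oestrogen receptor, was at 0.66 in pair 1 and -0.98 in pair 2, but its second kept probe gave 0.08 and 0.13.

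**Figure D4:**
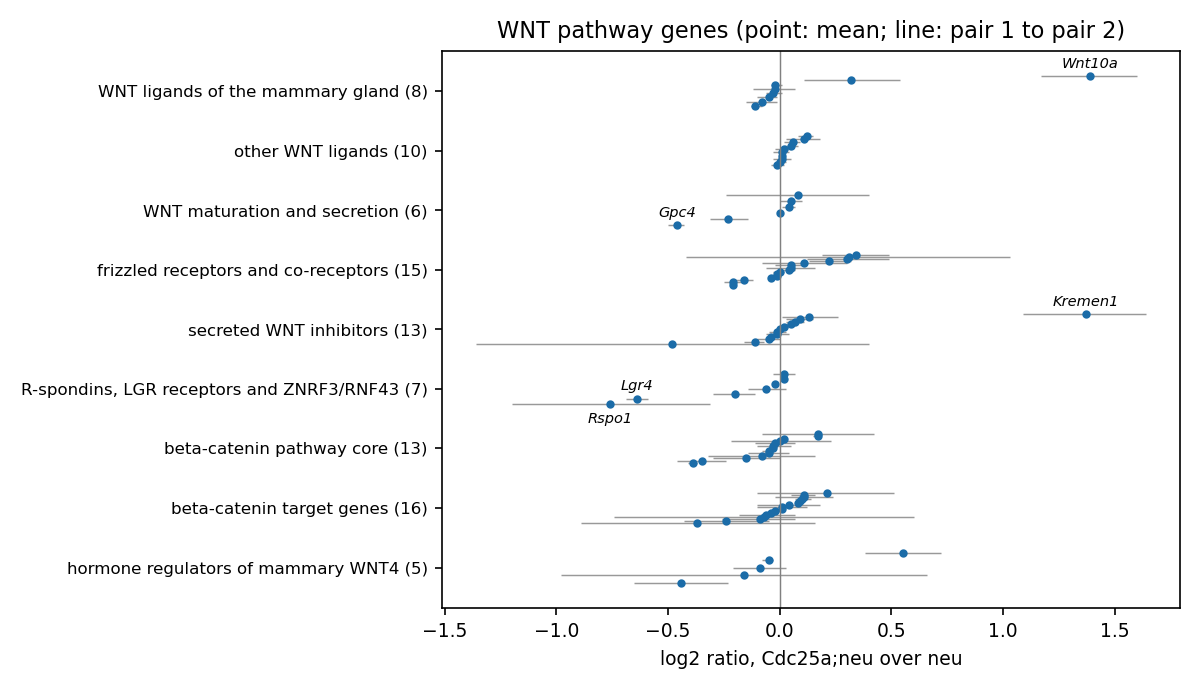
Mean log2 ratio of Cdc25a;neu over neu (points, x) for the measured genes of each WNT pathway list (rows, number of genes in brackets), with a line joining the pair 1 and pair 2 ratios. Most genes lie near 0, Wnt10a and Kremen1 stand at 1.39 and 1.37, and Rspo1 and Lgr4 at -0.76 and -0.64. The Rspo1 probe was well above background on only 2 arrays in Cdc25a;neu. The row labelled hormone regulators of mammary WNT4 is the list of hormone-linked genes.

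The tumours were checked against markers of the cells they could hold. The 9 luminal epithelial markers summed to 52312 and 54095 in Cdc25a;neu tumours, against 54229 and 57178 in neu tumours, and the 8 basal markers to 3758 and 4141, against 3814 and 3425. Fat cell markers had lower sums in both Cdc25a;neu tumours. The 9 markers summed to 2754 and 3226 in Cdc25a;neu tumours, against 7517 and 18472 in neu tumours. On all 4 arrays 5 of the 9 were lower, with loess and with median centring, beside 12.5% and 3.29% of all genes. Without Fabp4, the brightest of them, the other 8 summed to 1908 and 1653, against 3179 and 5378. The 7 skeletal muscle markers summed to 1087 and 1241, against 1154 and 4052, and the 8 endothelial markers to 1652 and 2945, against 1611 and 2518. The part of these cell types in the ratios of the ligands and of the pathway genes was not tested.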

How the data were processed

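The deposited scanner files give, per the file headers, intensities of both channels, processed signals, log10 ratios of red over green and a p-value of each log ratio from the scanner software's error model. The software was Agilent Feature Extraction, version 7.2 per the submitters' processing notes and a later one per the file headers. The authors' deposited value table, an alternative source only, follows a natural log of red over green: slopes against the scanner's ratio were 2.274 to 2.294, where 2.303 marks a natural log. Its column medians were 0.0209, 0.0007, 0.0209 and 0.0078, and how it was centred is not given in these sources. Per the labels' protocols, RNA was amplified linearly from oligo-dT primers.

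Intensities were background-corrected by normexp (offset 50) and normalized by loess within arrays in limma 3.58.1 (R 4.3.3), with control spots at no weight. Outlier-flagged spots (9 to 87 per array) were left out and spots of a probe averaged. Probes were kept where 1 channel or both stood well above background on 2 or more of the 4 arrays. Swapped arrays were turned to Cdc25a;neu over neu and averaged within a pair, and the 2 pair ratios were tested against 0 (two-sided, eBayes, Benjamini-Hochberg at 0.05 over kept probes). The code was tested on simulated data. The brightest kept probe stood for a gene in counts over genes and lists. Gene names, chromosomes and gene order came from a RefSeq table, which named 15309 of the 32643 genes or transcripts; no coordinates are given because the files name no build. All 9 ligands are named, then by rule the list genes with the largest mean ratios in size (4 per pathway list, 3 per marker list), of which some are described, and the 3 named genes nearest to a ligand. Members and lists were chosen with earlier results of these data known. The number of arrays limits the precision, and each array lay on its own slide, so slide was not tested as a batch. The alternatives covered background correction, normalization, value source, filter, probe choice, variance model, unit of replication, left-out arrays and single pairs. Marker sums without the brightest genes, the further Wnt5b probe, the scanner's p-value and the neighbouring genes were added after seeing the data.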

Additional observations from a re-analysis of the deposited data

How the results depend on the processing

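With 2 mouse pairs the test had little power, and a large and even difference did not pass it either. The fat cell marker Cfd, at -3.55 in pair 1 and -3.54 in pair 2, had a limma adjusted p of 0.245. Ratios of dim probes depend on the background correction. Wnt10a was higher in Cdc25a;neu under all 16 other settings that used both pairs, at 1.29 to 1.48, and Wnt5b at 0.28 to 0.51. Settings that changed only the filter, probe choice, variance model or unit of replication could not move these ratios. The fits on separate channels could not move them either. Only the other settings bear on the size of the ratios. The count of probes past an adjusted p of 0.05 in limma was 0 in 14 of the other settings. It was 1109 (606 higher) with median centring in place of loess and 935 (374 higher) with the 4 arrays as units, which counts technical repeats as replicates. Wnt10a passed under both, at 1.44 (limma adjusted p = 7.53e-15) and 1.39 (limma adjusted p = 0.0144). The main fit gave nearly the same ratio, 1.39, at a limma adjusted p of 0.453. With median centring the lowest limma adjusted p of any probe was 2.1e-57, still from 2 pair ratios per probe. In limma the variance of each probe is drawn towards a value pooled over probes. These p-values thus do not rest on a probe's own spread between the mouse pairs alone. How strongly the variances were drawn was not examined. The fit on separate channels with the pair as replicate block repeats the main fit, with 0 calls. The fit with no block also gave 0 calls. Signs turned for ligands near 0: Wnt10b was 0.09 in the authors' deposited value table, and in pair 1 alone Wnt4 was 0.07, Wnt10b 0.006 and Wnt11 0.006. With each array left out in turn, Wnt4 ran from -0.069 to 0.022 and Wnt10b from -0.053 to 0.022, the highest for both without the pair 1 array with Cdc25a;neu in Cy5. Wnt2 and Wnt10b were not kept when both channels had to be above background on all 4 arrays, and Wnt7b had no value without the pair 2 array with Cdc25a;neu in Cy3. The number of probes near-equal to Wnt10a was 17 at a tolerance of 0.1, 137 at 0.5 and 96 with the scanner's log ratio. The causes were not tested.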
